A study of Mus musculus with 4 samples.

Results

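The transcripts of 10 scavenger and endocytic receptors were followed in CD45-negative cells of mouse lymph nodes. The receptors are Marco, Msr1, Mrc1, Scarb1, Scarb2, Olr1, Stab1, Stab2, Cd163 and Siglec1, and they were taken by gene name from the annotation of the array, where 15 of 41174 probes carried such a name; 9 of the 10 entered a fit over 21392 genes. The set was selected on differences between mLN and pLN seen earlier on these same arrays. The donors were C57BL/6NCrl wild-type animals, and cells were taken from gut-draining mesenteric nodes (mLN) and from peripheral nodes (pLN). The nodes were digested with collagenase and the CD45-negative cells, which lack the leukocyte surface marker CD45, were separated with magnetic beads. Each node was sampled in 2 independent experiments, so there were 2 mLN and 2 pLN arrays of 1 colour. The labels do not say which peripheral nodes were used, how many animals made up a sample or whether the experiments used separate animals. The spread between these samples may therefore be technical. The errors rest on that spread and on a variance shared across the genes of the fit. The CD45-negative fraction is a mixture of endothelial, reticular and other cells, and fewer cells of a type and less RNA per cell cannot be told apart in it.

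Scavenger receptors bind modified lipoproteins, bacterial surfaces and dying cells and carry them into the cell. In lymph nodes they are known from the sinuses through which lymph flows, on the lymphatic endothelial cells of the sinus walls and on the macrophages that sit in the sinuses. The mannose receptor and the stabilins are carried by both kinds of cell, whereas CD163 and sialoadhesin are known mainly as macrophage proteins.

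Marco, a trimeric class A receptor for bacteria and particles, was 9.74-fold higher in mLN than in pLN cells, and Mrc1, which encodes the mannose receptor (CD206), was 4.13-fold higher. Scarb2 was 1.52-fold higher and Scarb1 1.93-fold lower in mLN. The mLN minus pLN differences of Scarb1, Stab1, Stab2, Msr1, Siglec1 and Olr1 were below 0 on the log2 scale, and Cd163 was not measured above background on any array. Of the 9 receptors that entered the fit across all genes (limma, Benjamini-Hochberg adjusted p below 0.05), Marco and Mrc1 passed, both higher in mLN, beside 1.05% of all 21392 genes tested in either direction and 0.776% in that direction. The contrast is the one they were selected on, so their differences are given as descriptions with standard errors and without p-values, and nothing is read from that count.

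What the array measured of these genes was set by short probes of 60 bases. The following are those on which the node difference and the doubtful cases rest, written 5′ to 3′. For the Marco, Mrc1 and second Siglec1 probe the first 30 bases are shown. Capitals mark the 20 bases that both Scarb2 probes share.
Marco: gagcccgagaggtcatcagtgtgtccccag
Mrc1: ttgagaactgtatttatccacatgtagaat
Scarb2, probe with the lower signal: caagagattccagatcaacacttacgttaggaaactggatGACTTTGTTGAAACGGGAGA
Scarb2, probe with the higher signal: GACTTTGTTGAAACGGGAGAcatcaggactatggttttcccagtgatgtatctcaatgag
Siglec1, 5′ probe: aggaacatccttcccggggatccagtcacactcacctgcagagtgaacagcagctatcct
Siglec1, 3′ probe: atatcagtcaggttgctctaacagagactc
In the mm8 assembly that the files use, the Marco probe lies on chromosome 1 (chr1:122302084-122302103, minus strand) and the Mrc1 probe on chromosome 2 (chr2:14249431-14249491, plus strand). The files list only 20 bases for the Marco probe. The Scarb2 probes lie on chromosome 5 over the same stretch (chr5:93523785-93525118 and chr5:93523745-93525078, minus strand). The Siglec1 probes lie on chromosome 2, the 5′ one at chr2:130775398-130775457 and the 3′ one at chr2:130760914-130760973 (minus strand). The remaining probes lie on chromosome 5 for Scarb1 (chr5:125566267-125566326), chromosome 8 for Msr1 (its brightest at chr8:41102621-41102680), chromosome 10 for Stab2 (chr10:86271252-86271311), chromosome 14 for Stab1 (its brightest at chr14:29968111-29968170) and chromosome 6 for Olr1 (chr6:129450991-129451050), all on the minus strand, and on the plus strand of chromosome 6 for Cd163 (chr6:124296085-124296144). No annotation of that assembly was used here, so exons and untranslated parts are not given.

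**Figure D1:**
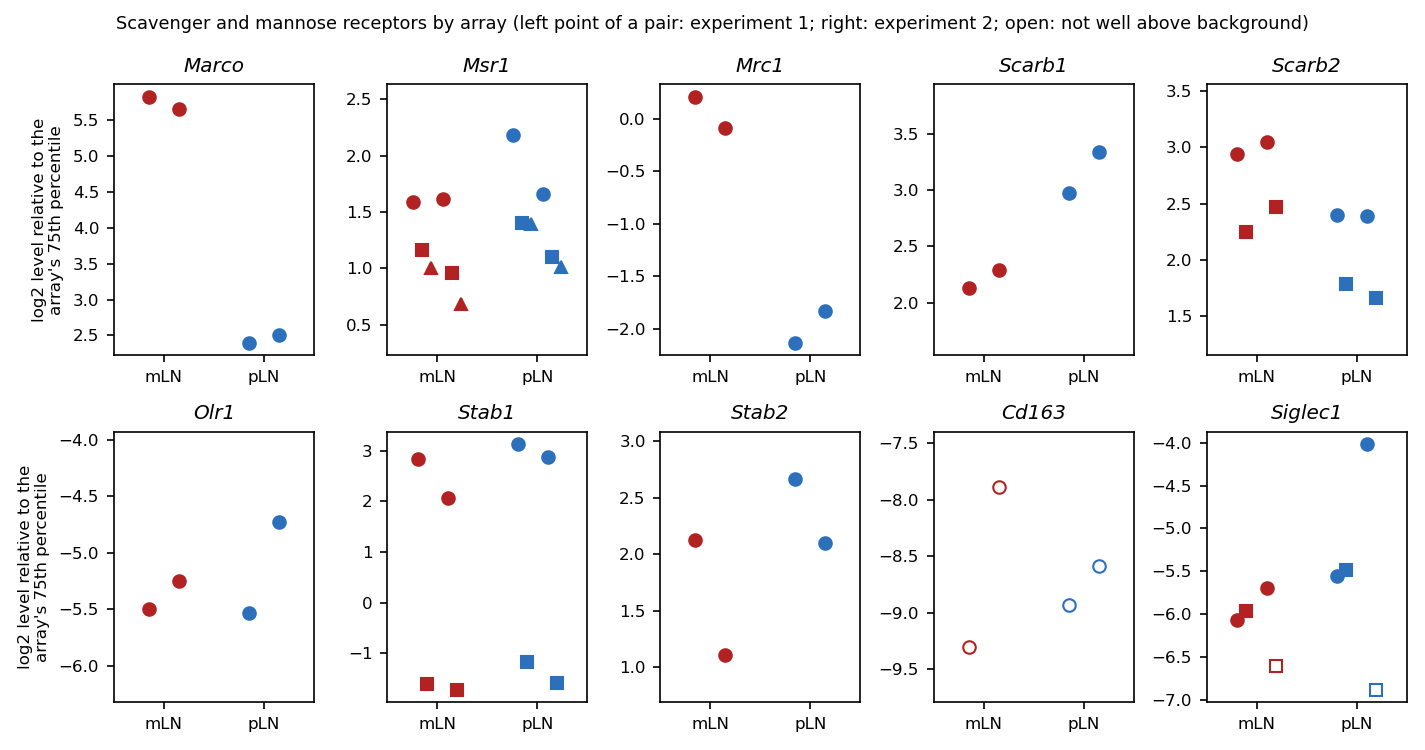
Log2 level of each receptor probe on each array, relative to that array's 75th percentile; mLN arrays are red, pLN arrays blue, and each marker shape is a probe. Filled markers were well above background. Both mLN points of Marco and of Mrc1 lie above both pLN points, while Cd163 has open markers only.

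Signals are given in multiples of the 75th percentile of all probes on the same array, so that 1 is a fairly bright spot, and they compare arrays for a probe but not a probe with another probe. Differences are means of log2 values, mLN minus pLN, with the standard error of the limma fit (n = 2 arrays per node).

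Among the class A receptors, which carry a collagen-like stalk, Marco reached 56.5 and 50.1 on the mLN arrays, against 5.27 and 5.67 on the pLN arrays. The mLN values stood far above the pLN values and the arrays of a node differed little from each other. The log2 difference was 3.28 ± 0.15, with 3.42 in experiment 1 and 3.14 in experiment 2. Msr1, which encodes scavenger receptor A1, the macrophage receptor for acetylated lipoprotein, had 3.0 and 3.07 on the mLN arrays, against 4.53 and 3.15 on the pLN arrays by its brightest probe. The pLN array of experiment 1 was high and the other 3 arrays lay close together. Its log2 difference was −0.32 ± 0.22, and the 2 other probes of Msr1 gave −0.36 ± 0.22 and −0.19 ± 0.19. Leaving out the pLN array of experiment 1 brought Msr1 to −0.05, and leaving out that of experiment 2 brought it to −0.58.

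Mrc1, whose product binds mannose-ended glycoproteins and microbial sugars, had 1.16 and 0.944 on the mLN arrays, against 0.228 and 0.282 on the pLN arrays. The nodes did not overlap. The log2 difference was 2.05 ± 0.20, with 2.35 in experiment 1 and 1.74 in experiment 2. With the experiment as a block Mrc1 no longer passed, nor did it with any 1 array left out (1.89 to 2.20), although its direction held. The call of Marco also ended with either pLN array dropped, as did all others of the series. Its log2 difference was 3.20 to 3.37 with single arrays dropped. Both genes were selected on this contrast, so a call that stays is no support for their difference.

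**Figure D2:**
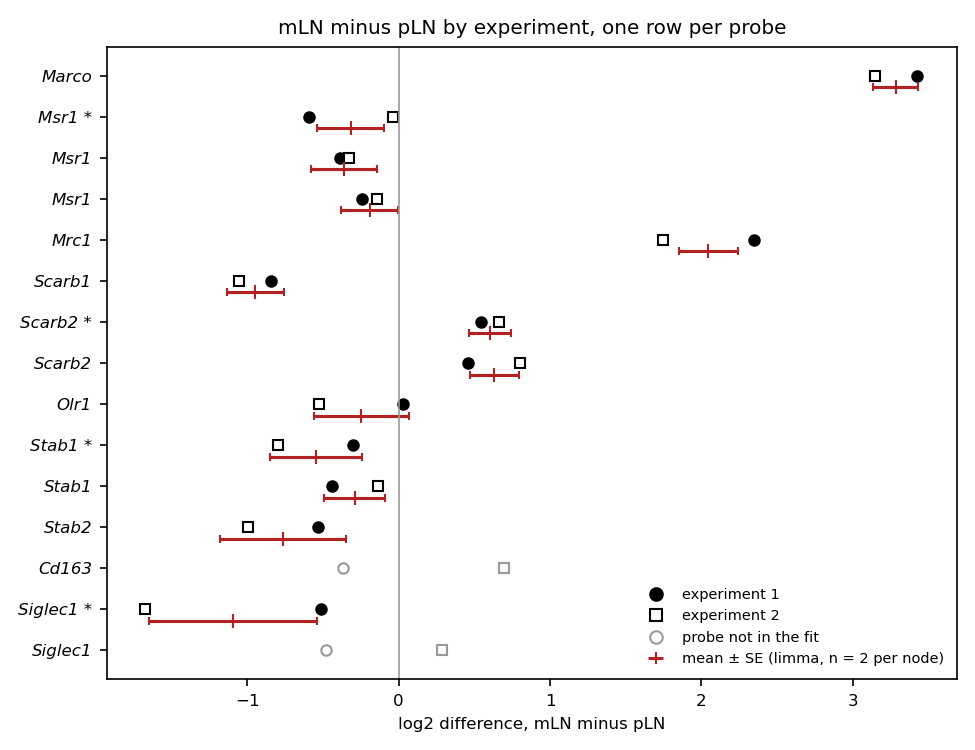
Log2 difference, mLN minus pLN, of each receptor probe in experiment 1 (filled circles) and experiment 2 (open squares), with the limma mean and its standard error in red below them (n = 2 arrays per node). An asterisk marks the probe that represents a gene with several probes; grey symbols are probes that did not enter the fit. Marco and Mrc1 lie at 1.74 or more in both experiments, and the other probes at 0.80 or less.

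The class B receptors, which have a membrane span at each end, went apart. Scarb1 encodes SR-BI, the receptor that takes up cholesterol esters from high-density lipoprotein, and had 4.38 and 4.88 on the mLN arrays, against 7.86 and 10.1 on the pLN arrays. Both mLN arrays were below both pLN arrays, a log2 difference of −0.95 ± 0.19, with −0.84 in experiment 1 and −1.05 in experiment 2. Scarb2 encodes LIMP-2, which carries glucocerebrosidase to lysosomes, and had 7.67 and 8.27 on the mLN arrays, against 5.27 and 5.23 on the pLN arrays. Both mLN arrays were above both pLN arrays, with a log2 difference of 0.60 ± 0.14 and of 0.63 ± 0.16 by its other probe. Because these probes share 20 bases, their likeness is not a second measurement of the transcript. Neither Scarb1 nor Scarb2 passed.

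The stabilins, large multi-domain receptors that clear ligands in sinus endothelium, were on the lower side in mLN. Stab1 had 7.12 and 4.21 on the mLN arrays, against 8.77 and 7.30 on the pLN arrays. The log2 difference was −0.55 ± 0.30, and a second Stab1 probe, 20344 bases upstream in the genome, gave −0.29 ± 0.20. Stab2 had 4.38 and 2.16 on the mLN arrays, against 6.34 and 4.30 on the pLN arrays, and the nodes overlapped (log2 difference −0.76 ± 0.42). For both genes the mLN array of experiment 2 was the lowest of the 4. Without it, the values shrank to −0.17 for Stab1 and −0.25 for Stab2, and without the mLN array of experiment 1 they were −0.93 and −1.27. Without the pLN array of experiment 1 Stab2 had −0.48. Neither gene passed.

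Signals of the remaining receptors were low, although Olr1 and the 5′ probe of Siglec1 were well above background on all 4 arrays. Olr1 encodes LOX-1, the endothelial receptor for oxidised low-density lipoprotein, and had 0.0221 and 0.0263 on the mLN arrays, against 0.0216 and 0.0378 on the pLN arrays. The nodes overlapped, and the log2 difference of −0.25 ± 0.32 turned to 0.16 without the pLN array of experiment 2 and to 1.37 with normexp background correction. Siglec1, which encodes sialoadhesin (CD169), the sialic acid receptor that marks subcapsular and medullary sinus macrophages, had 0.0149 and 0.0194 on the mLN arrays, against 0.0213 and 0.0618 on the pLN arrays by its 5′ probe. Only the pLN array of experiment 2 stood out, and the log2 difference of −1.09 ± 0.55 shrank to −0.32 without it, grew to −1.86 without the other pLN array and turned to 1.04 with normexp background correction. The 3′ probe of Siglec1 was well above background on the arrays of experiment 1 alone and read 0.0160 and 0.0103 on the mLN arrays, against 0.0224 and 0.00848 on the pLN arrays. The Siglec1 probes therefore disagreed about the array on which the 5′ probe was highest. Cd163, the haemoglobin-haptoglobin receptor of macrophages, was not well above background on any of the 4 arrays (0.00158 and 0.00422 in mLN, 0.00204 and 0.00260 in pLN cells), and no fold is given for it. None of the receptor probes was saturated.

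By the probe that represents each of the 9 receptors in the fit, 3 had both mLN arrays above both pLN arrays (Marco, Mrc1 and Scarb2). Both mLN arrays were below for 4 (Msr1, Scarb1, Stab1 and Siglec1). The nodes overlapped by another probe of Msr1 and by the 3′ probe of Siglec1. Over all genes tested, 45.6% had no overlap between the nodes, 20.6% with higher and 25.0% with lower mLN values. The median log2 difference of the 9 receptors was −0.32, beside −0.03 over all genes tested, and turned to 0.32, beside 0.38, with normexp background correction.

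Marco and Mrc1 were both higher in mLN, and their promoters are therefore shown, as RefSeq gives them on GRCm38.p6. Each window holds the 250 bases before the start of the gene. Capitals mark the letters GAGGAA on either strand, the core bound by PU.1, an ETS factor of myeloid cells.
Marco (chr1:120505025-120505274, minus strand): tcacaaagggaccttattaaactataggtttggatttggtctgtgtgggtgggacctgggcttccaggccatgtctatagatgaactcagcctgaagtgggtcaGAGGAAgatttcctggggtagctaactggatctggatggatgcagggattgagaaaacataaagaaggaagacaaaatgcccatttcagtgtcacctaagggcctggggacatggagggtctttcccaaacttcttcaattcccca
Mrc1 (chr2:14229164-14229413, plus strand): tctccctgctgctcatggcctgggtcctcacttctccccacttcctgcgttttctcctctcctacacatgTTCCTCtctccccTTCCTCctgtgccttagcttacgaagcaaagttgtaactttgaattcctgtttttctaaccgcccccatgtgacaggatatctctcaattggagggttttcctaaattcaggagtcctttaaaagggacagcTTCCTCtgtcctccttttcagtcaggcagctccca
The letters occur at 1 place in the Marco window, 146 bases before the start, and at 3 places in the Mrc1 window, 180, 167 and 35 bases before it. The windows of Stab1 and Olr1 hold them at 1 place each and those of Scarb2, Stab2 and Cd163 at none. They occur in 23.3% of 32851 RefSeq windows of the same table. The AP-1 letters TGANTCA, searched on both strands, which do not overlap the first motif, are in neither window, are in that of Olr1, and occur in 6.75% of all windows. Windows were matched by symbol for 7 of the 10 receptors. A match describes letters and does not show that a factor binds.

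Other scavenger and endocytic receptors, a list of 28 genes of which 25 entered the fit, held 2 genes that passed higher in mLN and none lower, beside 0.776% and 0.276% of all genes. The second of them, Megf10, entered the fit through its mLN arrays alone. Clec4g encodes LSECtin, a C-type lectin of sinusoidal and lymph node endothelium, and had 15.2 and 12.9 on the mLN arrays, against 4.45 and 4.24 on the pLN arrays. It rose 3.22-fold in mLN (log2 difference 1.69 ± 0.16, limma adjusted p = 0.0337 over all genes, 0.00709 to 0.69 in the alternatives). Both mLN arrays were above both pLN arrays, but the 2 other Clec4g probes gave 1.35 and 0.71, and the mean of the probes did not pass (1.25, adjusted p = 0.175). Nor did Clec4g pass with any 1 array left out (adjusted p 0.0628 to 0.227). Megf10, a receptor for dying cells, had 0.0300 and 0.0302 on the mLN arrays, stayed near background on both pLN arrays (not well above it, 0.00717 and 0.0064) and was at least 3.45-fold higher in mLN (limma adjusted p = 0.0161, 0.01 to 0.69 in the alternatives). A gene that enters through the node where it is high had to differ, so this p is no support, and Megf10 is absent from the fit of genes measured on all 4 arrays. The bound takes, for each pLN array, the lowest level of a probe that was measured there. Its call ended when any 1 array was dropped, the mLN ones included (adjusted p = 0.0552 and 0.0537).

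The genes of that list with the largest differences among those that did not pass were Timd4 and Pla2r1. Timd4, the phosphatidylserine receptor TIM-4 of resident macrophages, had 0.204 and 0.336 on the mLN arrays, against 1.20 and 1.42 on the pLN arrays. It was 4.98-fold lower in mLN without passing (log2 difference −2.32 ± 0.29, adjusted p = 0.0624). With the experiment as a block it passed (limma adjusted p = 0.0357), as it did with an intensity trend in the variance (0.0253). Pla2r1, a mannose receptor family member that binds phospholipase A2, had 0.97 ± 0.19 (adjusted p = 0.135). Over the 25 genes the median was 0.13, with 17 positive and 8 negative values. The plot of the lists shows every tested gene.

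**Figure D3:**
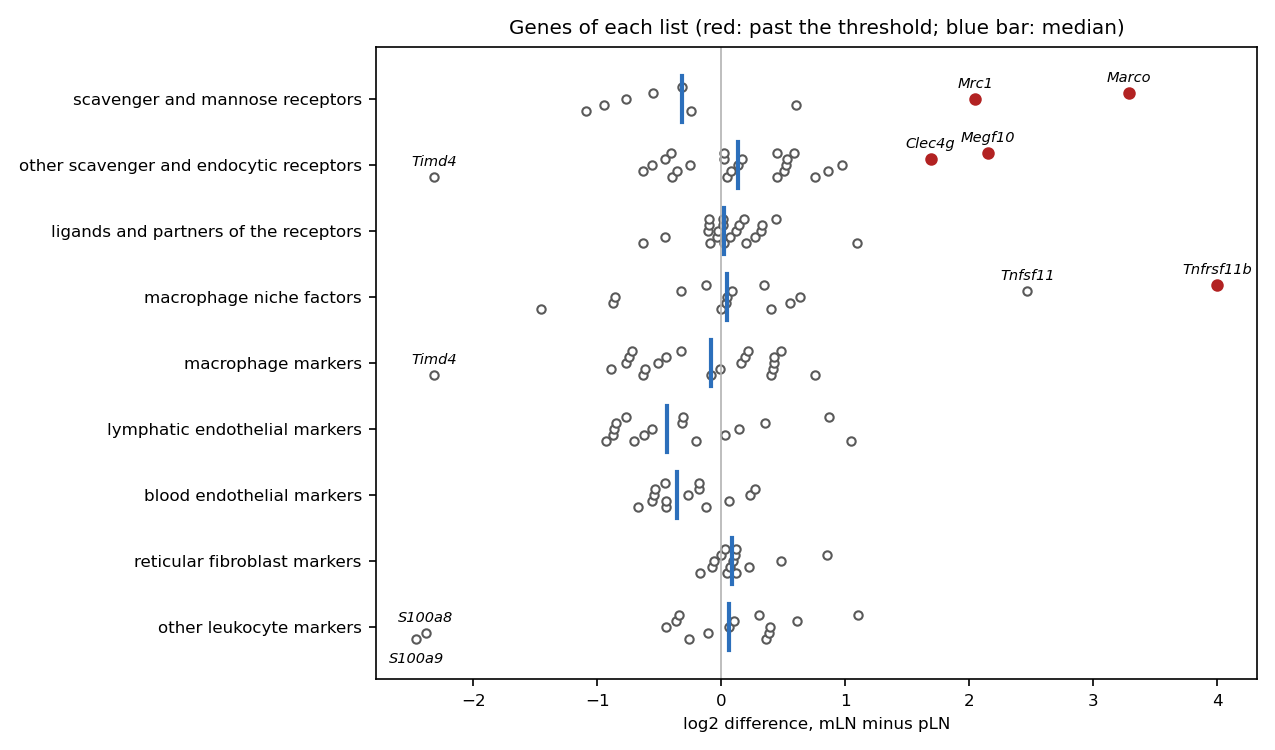
Log2 difference, mLN minus pLN, of every tested gene in each list; a point is a gene, red points passed the threshold (limma adjusted p below 0.05 over all genes) and blue bars are list medians. Red points are Marco and Mrc1, Clec4g and Megf10, and Tnfrsf11b; no marker list holds one.

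None of the ligands and partners of the receptors passed limma's adjusted threshold, and 0 of 21 had an unadjusted p below 0.05, beside 14.7% of all genes tested. Of 22 such genes, 21 entered the fit, 13 with positive and 8 with negative values, and their median was 0.03, which was −0.01 without the pLN array of experiment 1. The largest differences were those of Hp, which encodes haptoglobin, the plasma protein that hands haemoglobin to CD163 (1.10 ± 0.45, adjusted p = 0.385; 0.54 to 1.65 when single arrays were dropped), and of Gdf15, a stabilin ligand (−0.63 ± 0.49, adjusted p = 0.654, which turned to 0.06 without the pLN array of experiment 2).

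Among 15 factors that maintain or mark macrophage niches, Tnfrsf11b passed, higher in mLN, and none passed lower, beside 0.776% and 0.276% of all genes. It encodes osteoprotegerin, the soluble decoy receptor of RANKL, and had 2.65 and 2.06 on the mLN arrays, against 0.129 and 0.166 on the pLN arrays. The nodes did not overlap, and the log2 difference was 4.00 ± 0.22 (limma adjusted p = 0.0133, 0.00305 to 0.69 in the alternatives). It did not pass with normexp background correction (3.50), and it was 3.81 to 4.18 when single arrays were dropped. Tnfsf11, which encodes RANKL itself, a cytokine known to sustain sinus macrophages through lymphatic endothelium, had 1.86 and 5.46 on the mLN arrays, against 0.403 and 0.826 on the pLN arrays. Experiment 2 was higher than experiment 1 in both nodes, and the log2 difference of 2.47 ± 0.65 (1.69 to 3.24 when single arrays were dropped) did not pass (adjusted p = 0.205) until the experiment was taken as a block (adjusted p = 0.0351).

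The receptors were set beside markers of the cells that could carry them. Of 22 macrophage markers 21 entered the fit and none passed limma's adjusted threshold (2 of 21 had an unadjusted p below 0.05, beside 14.7% of all genes), with a median of −0.08. The median turned to 0.51 with normexp background correction, beside 0.38 over all genes. It was 0.16 without the pLN array of experiment 1 and −0.34 without that of experiment 2. Their summed signal was 37.0 and 41.3 on the mLN arrays, against 51.3 and 42.0 on the pLN arrays, and the sum rests on its brightest probes. Without Lyz2, a lysozyme gene, it was 31.7 and 37.9 on the mLN arrays, against 41.7 and 36.8 on the pLN arrays, which overlap. Adgre1, which encodes the macrophage antigen F4/80, had 0.108 and 0.0985 on the mLN arrays, against 0.0908 and 0.0652 on the pLN arrays, and Csf1r, the receptor of the macrophage growth factor, had 0.512 and 0.445 in mLN, against 0.308 and 0.423 in pLN cells. Neither passed (adjusted p = 0.481 and 0.504). They were the only 2 of the 21 markers with both mLN arrays above both pLN arrays, beside 20.6% of all genes tested. Both mLN arrays were below for 7 (Itgam, Lyz1, Tyrobp, Fcer1g, Ctss, Timd4 and Mpeg1), beside 25.0% of all genes. Of the 21 differences 9 were positive and 12 negative. Vsig4 was the marker that did not enter, and 20 of the 21 were well above background on all 4 arrays. The largest differences among them were those of Timd4 and Lyz1, a lysozyme gene whose transcript is nearly the same as Lyz2 (−0.89 ± 0.41, adjusted p = 0.438; −1.38 to −0.40 when single arrays were dropped). Of 15 markers of other leukocytes none passed (4 of 15 had an unadjusted p below 0.05, beside 14.7% of all genes), with a median of 0.06, which was −0.11 with the mean of each gene's probes and −0.07 without the pLN array of experiment 2. Their summed signal was 6.98 and 7.55 on the mLN arrays, against 16.4 and 9.62 on the pLN arrays. Without S100a8 and S100a9 the sums were 5.48 and 6.78 on the mLN arrays, against 7.41 and 5.86 on the pLN arrays, which overlap. The neutrophil genes S100a8 and S100a9 had −2.38 ± 0.51 and −2.46 ± 0.57 (adjusted p = 0.15 and 0.168, and 0.0251 and 0.026 with the experiment as a block). Ptprc, which encodes CD45, was above background on all arrays, with 0.343 and 0.374 in mLN, against 0.402 and 0.294 in pLN cells. The part of residual leukocytes in the receptor signals was not tested.

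Lymphatic endothelial markers were detected on all arrays, and none of the 16 passed (5 of 16 had an unadjusted limma p below 0.05, beside 14.7% of all genes). Their median was −0.44, with 5 positive and 11 negative values. It was −0.78 without the mLN array of experiment 1 and −0.18 without that of experiment 2. Their summed signal was 532 and 493 on the mLN arrays, against 527 and 572 on the pLN arrays. Ccl21c, a chemokine gene, alone made up 235 and 313 of the mLN sums and 183 and 246 of the pLN sums. The sums therefore rest in good part on that gene. Lyve1, a hyaluronan receptor of lymphatic endothelium, had 28.7 and 23.0 on the mLN arrays, against 12.6 and 12.3 on the pLN arrays. Both mLN arrays were above both pLN arrays, a log2 difference of 1.04 ± 0.17 that did not pass (adjusted p = 0.105). Of the 13 alternatives Lyve1 passed in 1, with an intensity trend in the variance (limma adjusted p = 0.0343). Sema3d, a semaphorin gene, had −0.93 ± 0.36 (adjusted p = 0.359; −1.34 to −0.52 when single arrays were dropped), and Prox1, the transcription factor that sets lymphatic identity, had −0.85 ± 0.25 (adjusted p = 0.247), a gene named after its value was seen. Reln, also named after its value was seen, went the other way with 0.87 ± 0.27 (limma adjusted p = 0.27). The differences of the 16 markers ran from −0.93 to 1.04, beside 3.28 for Marco and 2.05 for Mrc1. Whether lymphatic content plays a part in the Marco and Mrc1 differences was not tested.

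In the other stromal lists no gene passed in limma, while 5 of 14 blood endothelial and 1 of 14 reticular fibroblast markers had an unadjusted p below 0.05, beside 14.7% of all genes. Blood endothelial markers had a median of −0.36 over 14 genes, with summed signals of 391 and 328 on the mLN arrays, against 392 and 393 on the pLN arrays. Ly6c1 alone made up 151 and 103 of the mLN sums and 119 and 119 of the pLN sums. These sums therefore rest in good part on Ly6c1, whose own log2 difference was 0.07 ± 0.23. Pecam1 and Cdh5, adhesion molecules of endothelial junctions, had −0.67 ± 0.22 and −0.55 ± 0.17 (adjusted p = 0.295 and 0.26), and Pecam1 ran from −0.91 to −0.43 when single arrays were dropped. Reticular fibroblast markers had a median of 0.08 over 14 genes, which turned to −0.23 with normexp background correction, beside 0.38 over all genes. Lum, a small proteoglycan gene, had 0.86 ± 0.14 and Fbln1, a fibulin gene, 0.48 ± 0.28 (adjusted p = 0.103 and 0.537), and Fbln1 ran from 0.15 to 0.81 when single arrays were dropped. Of the 13 alternatives Lum passed in 1, with an intensity trend in the variance (limma adjusted p = 0.0186).

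**Figure D4:**
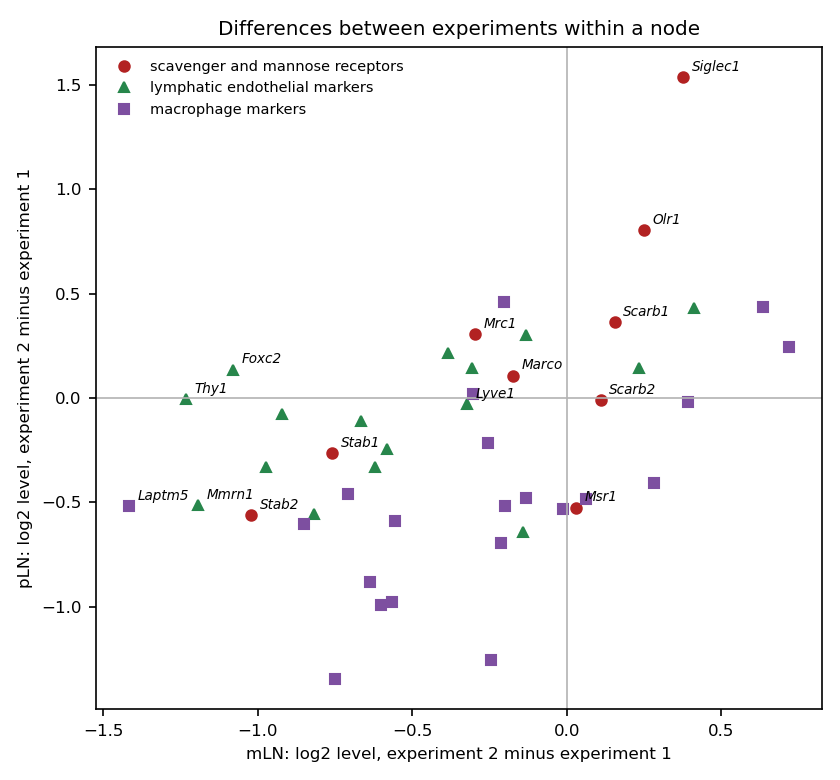
Log2 level in experiment 2 minus experiment 1, in mLN (horizontal) and pLN (vertical), for the 9 receptors in the fit and for lymphatic endothelial and macrophage markers. Stab1 and Stab2 lie at −0.76 and −1.02 in mLN, within the spread of the lymphatic markers, most of which are left of 0, and Siglec1 is the highest point in pLN at 1.54.

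The experiments also differed within a node. In mLN, Stab1 and Stab2 were lower in experiment 2 than in experiment 1 (log2 differences of −0.76 and −1.02). There, 14 of the 16 lymphatic markers were lower in experiment 2, with a median of −0.60, and examples are Mmrn1, a multimerin gene (−1.19), and Foxc2, a factor of lymphatic valves (−1.08). Marco and Mrc1 differed less (−0.17 and −0.30). In pLN the lymphatic markers had a median of −0.05, and Stab1 and Stab2 had −0.27 and −0.56. In mLN, 16 of 21 macrophage markers (median −0.25) and 9 of 14 blood endothelial markers (−0.17) were lower in experiment 2 too. Of the reticular fibroblast markers 5 of 14 were lower in mLN, and of the other leukocyte markers 4 of 15. The fall was not confined to mLN. In pLN, 17 of 21 macrophage markers (median −0.52) and 11 of 15 other leukocyte markers (−0.34) were lower in experiment 2. So were 10 of 16 lymphatic, 8 of 14 blood endothelial (−0.03) and 3 of 14 reticular fibroblast markers in pLN. The mLN array of experiment 2 also had the fewest probes well above background (74.0%, against 81.1% for experiment 1). Whether the lower stabilin signal on that mLN array follows from its lymphatic markers was not tested.

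By the distance between centred log2 values over the 4 arrays, the genes most like Marco were Star, the mitochondrial cholesterol carrier (distance 0.236, log2 difference 3.05), Gng13, a G protein gamma subunit (0.246, 3.48), and Rpp25, a subunit of ribonuclease P (0.246, 3.52). Those most like Siglec1, whose pattern was a high pLN array in experiment 2, were an immunoglobulin kappa variable segment with near-identical relatives (distance 0.209), Olfr920, an olfactory receptor gene (0.226), and Dio3, a deiodinase gene (0.254). With 4 arrays many genes share a pattern, and likeness of this kind describes these arrays alone.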

How the data were processed

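Total RNA of CD45-negative cells from 2 mLN and 2 pLN samples was hybridised to 1-colour Agilent arrays. The deposited intensity values are spot signals that Agilent's scanner software (Feature Extraction 9.5.3.1, named in the headers) wrote. Per the file headers, background was subtracted, trends across the array were removed and low spots received a surrogate value. Other deposited columns used are flags of 0 or 1 per spot (well above background, saturated, outlier). Per the file headers all 4 arrays lay on 1 slide scanned once. The deposited value table holds the same intensity values, scaled to a common 75th percentile with a floor of 15, as comparison with the scanner files showed, and served as an alternative only.

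Here spots with outlier flags were left out, signals were put on the log2 scale, from which the 75th percentile of the array (signal 1686 to 1741) was subtracted. Of 41174 probes, 74.0% to 81.1% were well above background on an array, and 31883 were so on both arrays of at least 1 node and entered. A gene was represented by its brightest entering probe. Names came from RefSeq on GRCm38 for 24375 probes by accession, 6301 by symbol and 2426 by synonym, and 8072 kept the file's name. limma 3.58.1 (R 4.3.3) compared mLN with pLN without a block, with 4.35 total degrees of freedom. A bound ("at least") sets a node without signal to the lowest measured probe of each array, or the gene's own signal if higher. Errors written ± are standard errors of that fit, which shares variance across genes. Of its degrees of freedom 2.35 come from the other genes, so ± is not the spread of a gene's own arrays alone. An exact permutation of 2 against 2 arrays cannot go below 0.333. In simulated arrays of 21392 genes, 0% of 50 genes shifted by 1 and 58% of 50 shifted by 2 on the log2 scale were called, so a gene that did not pass may still differ.

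The experiment numbers mark independent approaches that each gave an mLN and a pLN sample, per the series' design text, and deviations between experiments correlated across genes with r = 0.246 between the nodes. A fit with the experiment as a block was run too, and is quoted where a call changed with it. The receptors, the gene lists and the tests were chosen with earlier results of these data known. Apart from all receptors, named genes were, per list, up to 5 that passed and the 2 with the largest difference that did not, and the 3 nearest in pattern to Marco and to Siglec1. One gene that this rule names is not reported here. Genes named beyond that, for context, are Adgre1, Csf1r, Ptprc, Prox1, Reln, Ccl21c, Ly6c1, Mmrn1, Foxc2, Vsig4, Lyz2, Itgam, Tyrobp, Fcer1g, Ctss and Mpeg1. The 13 alternatives changed background, scaling, source, probe filter, probe choice, variance model, block or left out 1 array.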

Additional observations from a re-analysis of the deposited data

How the results depend on the processing

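Of 117 receptor values over 13 alternatives, 3 changed sign and 3 others moved by over 1 SD between arrays of a node, a limit that leaving out 1 of 2 arrays cannot pass, so the leave-one-out ranges stand beside the results. The sign changes were Siglec1 (1.04) and Olr1 (1.37) with normexp background correction, and Olr1 (0.16) without pLN replicate 2, while Olr1 had −0.65 without pLN replicate 1. That correction also shifted the median of all genes by over 0.1, to 0.38, and it turned Olfr920 to 0.79 and Dio3 to 0.40. The receptors that moved by more were Marco (2.93), Scarb1 (−1.19) and Scarb2 (0.33), all with that correction. Gdf15 ranged from −1.32 to 0.056 with 1 array left out. Of the receptors' calls, that of Marco ended with normexp and without either pLN array, and that of Mrc1 also without a filter on dim probes, with the experiment as a block and without either mLN array.

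The count of genes past the threshold (225, 166 higher and 59 lower in mLN) was 0 (0 and 0) with normexp, where 565 genes had an unadjusted limma p below 0.05, 354 (253 and 101) with median scaling, 44 (37 and 7) without a filter on dim probes and 441 (322 and 119) with an intensity trend in the variance. With 1 array left out it ran from 0 to 190, with 0 to 153 higher and 0 to 52 lower. With the experiment as a replicate block it was 333, 248 of them higher and 85 lower; among the named genes the block ended the call of Mrc1, added Timd4, Tnfsf11, S100a8 and S100a9, and changed no other call. The setting reported had 3140 genes with an unadjusted p below 0.05. The causes were not tested. Olr1, Siglec1, Cd163 and Megf10 lay near background, which limits what their values can show. The sums without Lyz2 and without S100a8 and S100a9 were chosen after seeing the data.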
